A study of Arabis alpina with 27 samples.

Results

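The return of *Arabis alpina* plants from 16 weeks at 4°C to a warm greenhouse was followed over 5 days in RNA of the main stem. All genes of 6 libraries were compared, 3 from plants harvested at the end of the cold (16w) and 3 from plants harvested 5 days later (16w+5dLD), out of 27 libraries in the series. The plants were of the accession Pajares, which flowers only after a long cold period, and the labels give no transgene or mutation for any group. All had grown for 8 weeks in long days (LD, 16 h light at 20°C and 8 h dark at 18°C) and were then moved to 4°C at the same day length, so that the return was a change of temperature and growth room without a change of day length. Each library was made from a pool of stem pieces of about 2 cm taken from upper internodes of the main stem, under the zone of compressed internodes, with the axillary buds removed, and the 3 libraries of a group were biological replicates (n = 3). Levels before cold (0w) and the returns after 12 and 21 weeks of cold (12w, 12w+5dLD, 21w and 21w+5dLD, 3 libraries each) were used beside this comparison. Plants at 16w were older than plants at 0w by the weeks spent in cold, so age and cold cannot be told apart against 0w. The study asks which genes accompany the formation of adventitious roots on the stem during long cold and their emergence after it.

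A plant that acclimates to cold makes protective proteins, raffinose-family sugars, proline and unsaturated membrane lipids under the control of the CBF transcription factors, and it slows growth. The circadian clock is a loop of morning genes (*LHY*, *CCA1*) and later genes (the *PRR* family, with *TOC1* in the evening) that repress each other. It gates the CBF factors, the PIF growth regulators and the photoperiod pathway. In a stem, xylem vessels and fibres lay down a secondary wall of cellulose, xylan and lignin, while the outer tissues deposit cutin, wax and, where a periderm or a wound forms, suberin. Expansins and xyloglucan endotransglucosylases loosen primary walls during cell expansion. Adventitious roots arise in the stem vasculature and have to pass through these outer tissues to emerge. Roles given below are those known in *Arabidopsis thaliana*, and each symbol is that of the *A. thaliana* homolog that the deposited table pairs with the *A. alpina* gene.

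The 6 libraries held 16.1 to 20.7 M counts. Over the 19337 genes tested, log2 levels correlated with r of 0.891 to 0.913 within the groups and 0.829 to 0.851 between 16w and 16w+5dLD, as a description across genes. Levels are given as CPM (counts scaled to library size) after TMM scaling, which are not divided by gene length and so compare samples, not genes. Stem tissue was visible in its markers, since all 16 genes of secondary wall polysaccharides had counts, and their summed level was 590 to 664 CPM at 16w and 2011 to 3054 CPM at 16w+5dLD. The 11 phloem markers summed to 560 to 707 CPM and 587 to 839 CPM. Of 7 markers of shoot meristem and buds, 4 were at 0 in all 6 libraries, and of 14 genes of root founder cells and primordia 3 were at 0. The summed level of these 14 genes was 77.8 to 88.7 CPM at 16w and 67.7 to 77.0 CPM at 16w+5dLD. Replicate 2 of 16w+5dLD held 153 genes at least 3-fold above and 436 genes at least 3-fold below both other libraries of its group, against 112 to 146 and 248 to 388 in the other 5 libraries. Where a named call, or the size of a called change, depended on this library, the value without it is given beside it.

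In the stem, 1321 genes were higher and 881 were lower after the 5 warm days, with calls made at an adjusted p under 0.05 in edgeR's quasi-likelihood test and a change of at least 2-fold (n = 3 against 3). These were 6.83% and 4.56% of the 19337 genes tested, and list counts below are read against these shares. The median log2 fold change of all tested genes was 0.024. All 3 libraries of the higher group lay above the other 3 for 1241 of the 1321 and for 850 of the 881. Genes named below for the size of their fold change were taken only from these. Where such genes are said not to overlap, this was a condition of naming them and no further evidence. Key members of the lists were named whatever their result. Changes of at least 2 on the log2 scale were reached by 512 higher and 276 lower genes. The 1321 genes had a median log2 difference of -1.72 between 16w and 0w and of 0.043 between 16w+5dLD and 0w, and the 881 genes had medians of 1.22 and -0.34. These comparisons share the 16w or the 16w+5dLD libraries with the return and are therefore not independent of it. A homolog was given for 1110 of the higher and 599 of the lower genes. In bulk RNA of a stem, fewer cells of a type and less RNA per cell cannot be told apart.

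**Figure D1:**
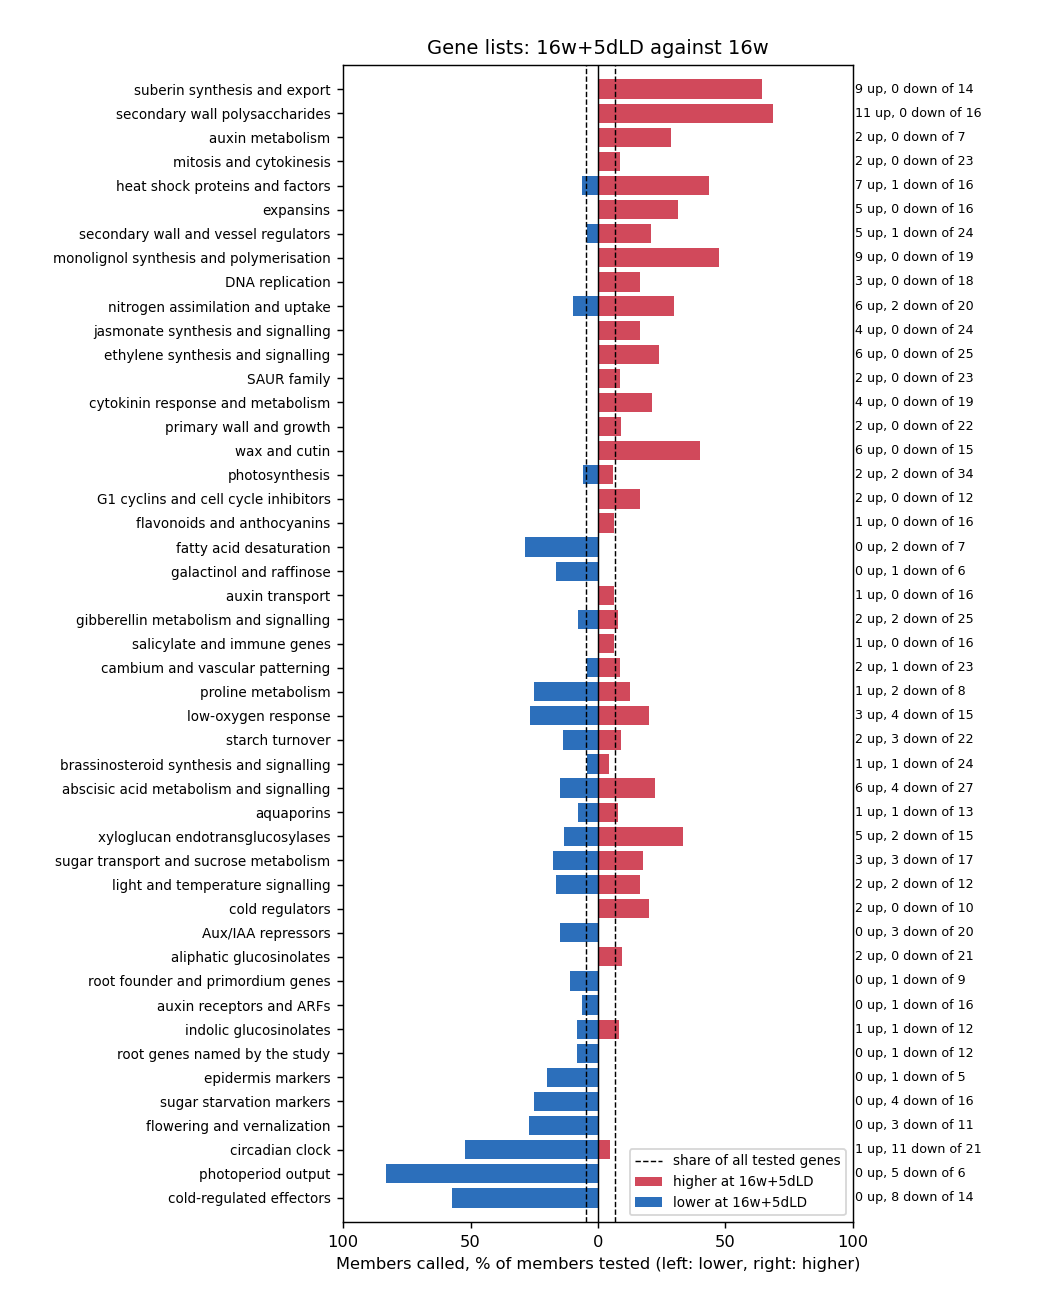
Share of the tested members of each gene list that were called higher (red, right) or lower (blue, left) at 16w+5dLD than at 16w, in % of members tested, for lists with at least 1 call, ordered by median log2 fold change. The dashed lines mark the shares of all tested genes, 6.83% higher and 4.56% lower. The lists of photoperiod output and cold-regulated effectors lay farthest to the left, and those of secondary wall polysaccharides and suberin farthest to the right.

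Several clock genes with a phase later than the morning were low after the return. Of 21 clock genes tested, 11 fell and 1 rose, with a median log2 fold change of -1.34. *TOC1*, a pseudo-response regulator of the evening, was at 257, 252 and 257 CPM at 16w and 14.9, 13.03 and 23.3 CPM at 16w+5dLD. The 3 libraries after the return lay far below the 3 nearly equal libraries in cold (log2 fold change -3.90 with an SE of 0.65, adjusted p = 0.00026). *PRR5*, which acts earlier in the day than *TOC1*, was at 184, 211 and 193 CPM at 16w and 7.52, 10.7 and 7.89 CPM at 16w+5dLD (log2 fold change -4.50 with an SE of 0.63, adjusted p = 8.4e-05). *FKF1*, a blue-light receptor that removes repressors of CONSTANS, was at 51.0, 70.1 and 62.2 CPM at 16w and 1.03, 0 and 1.26 CPM at 16w+5dLD (log2 fold change -6.28 with an SE of 1.58, adjusted p = 0.0059). *ELF4*, part of the evening complex, was at 15.3, 11.7 and 12.1 CPM at 16w and 0.391, 0.528 and 0.234 CPM at 16w+5dLD (log2 fold change -5.07 with an SE of 0.85, adjusted p = 0.00028). None of these genes had overlapping groups. *LHY*, the morning repressor, was at 83.2, 127 and 151 CPM at 16w and 302, 266 and 263 CPM at 16w+5dLD, so that its 3 libraries after the return lay above the 3 in cold (log2 fold change 1.20 with an SE of 0.41, adjusted p = 0.035). Its call was lost without 16w replicate 1 or 2 or 16w+5dLD replicate 1, 2 or 3 (log2 fold change 0.996 to 1.24, adjusted p = 0.06 to 0.13). At 0w *TOC1* was at 222 ± 22.2 CPM, *PRR5* at 147 ± 14.9 CPM, *ELF4* at 12.02 ± 1.299 CPM and *LHY* at 19.9 ± 6.05 CPM (mean ± SD, n = 3). After the return *TOC1*, *PRR5* and *ELF4* were thus also below the level before cold. The hour of harvest was not given in the sources used here. Clock genes differ over the day, and the part of a difference in hour was not tested.

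Most genes downstream of the clock in the photoperiod pathway fell as well. Of 6 tested, 5 fell and none rose (median -1.39), and this count was 3 without 16w replicate 1, 2 or 3 or 16w+5dLD replicate 1 or 3. *COL2*, a close relative of CONSTANS, was at 183, 181 and 204 CPM at 16w and 5.37, 4.23 and 5.84 CPM at 16w+5dLD (log2 fold change -5.20 with an SE of 1.21, adjusted p = 0.0034). The level after the return was that of 0w, 5.68 ± 6.57 CPM. *COL1* was at 131, 124 and 129 CPM at 16w and 43.2, 62.0 and 39.0 CPM at 16w+5dLD, also without overlap (log2 fold change -1.42 with an SE of 0.48, adjusted p = 0.032), but its count equalled that of a neighbouring gene in 4 of the 6 libraries, and its call was lost without 16w replicate 1, 2 or 3 or 16w+5dLD replicate 1 or 3 (log2 fold change -1.29 to -1.44, adjusted p = 0.059 to 0.11). *CDF2*, a DOF repressor of CONSTANS, was at 84.1, 90.9 and 98.7 CPM at 16w and 36.5, 43.4 and 26.8 CPM at 16w+5dLD. Its lowest library in cold was above its highest after the return (log2 fold change -1.36 with an SE of 0.34, adjusted p = 0.0059).

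**Figure D2:**
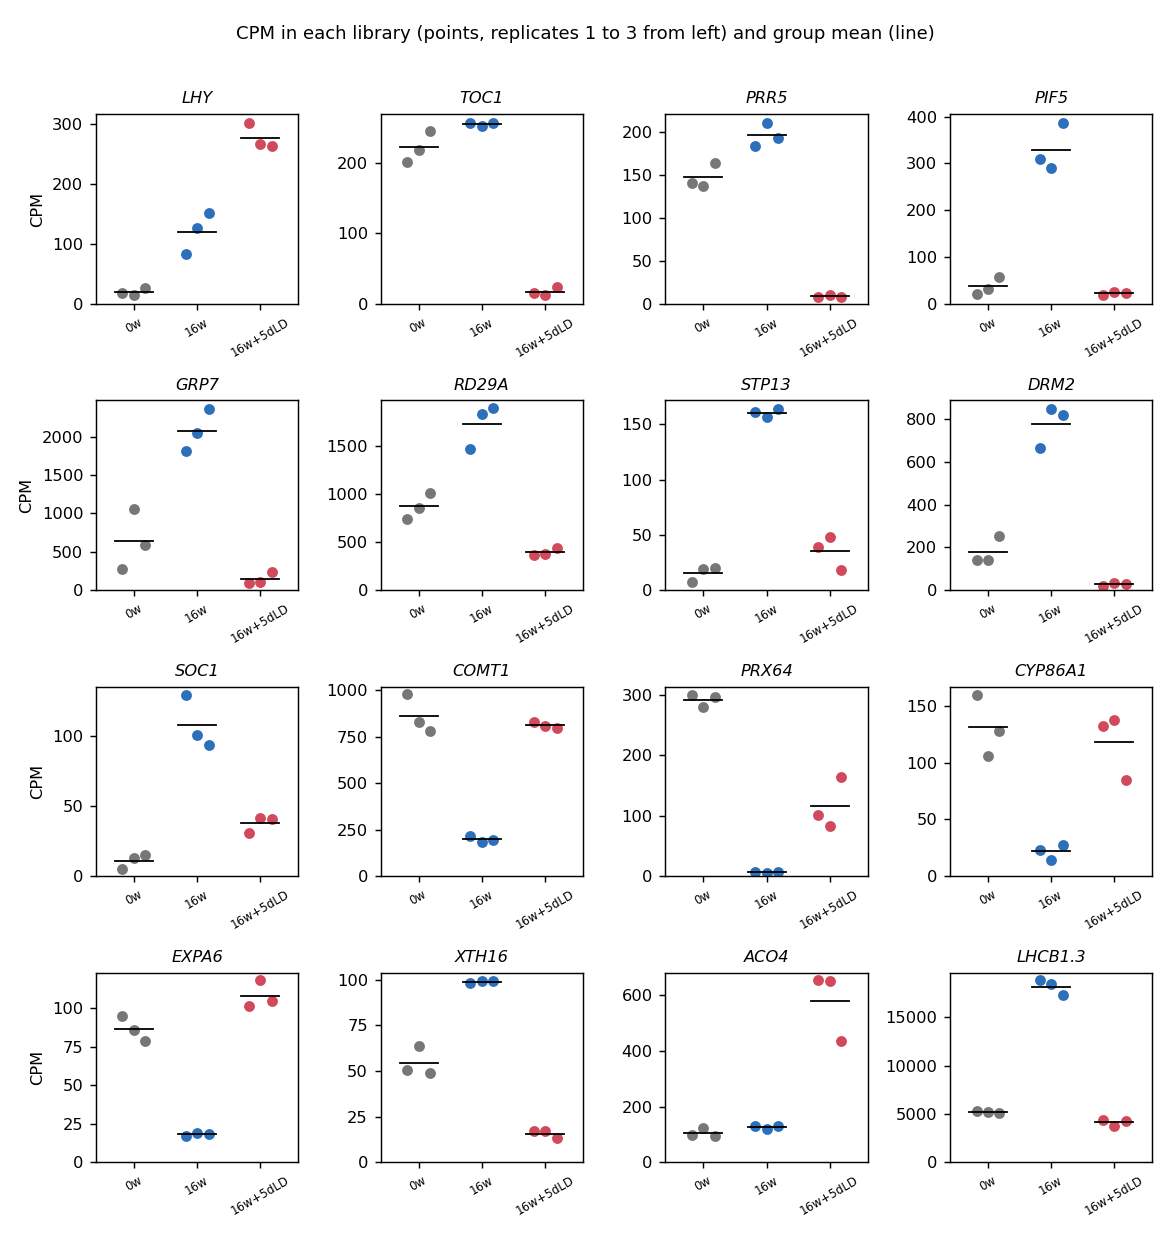
CPM of 16 genes in each library of 0w (grey), 16w (blue) and 16w+5dLD (red), with points for replicates 1 to 3 from left to right and a line at the group mean (each y axis linear from 0 on its own scale). For each gene the 3 red points lie all above or all below the 3 blue points, which was a condition for genes named by their fold change.

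Most cold-regulated effector genes fell, and none of their upstream regulators was called lower with all libraries in the fit. Of 14 effectors tested, 8 fell and none rose, with a median of -1.67. *GRP7*, an RNA-binding protein regulated by cold and the clock, was at 1817, 2042 and 2358 CPM at 16w and 97.5, 105 and 241 CPM at 16w+5dLD. Its highest library after the return was well below its lowest in cold (log2 fold change -3.81 with an SE of 0.74, adjusted p = 0.00088). *RD29A*, a desiccation and cold marker, was at 1471, 1838 and 1903 CPM at 16w and 369.8, 375 and 437 CPM at 16w+5dLD (log2 fold change -2.14 with an SE of 0.36, adjusted p = 0.00028), below its 0w level of 872 ± 137 CPM. *COR27*, which links cold to the clock, was at 133, 139.6 and 218 CPM at 16w and 3.61, 2.82 and 3.18 CPM at 16w+5dLD (log2 fold change -5.67 with an SE of 1.63, adjusted p = 0.015), and the call was lost without 16w+5dLD replicate 1, 2 or 3 (log2 fold change -5.59 to -5.77, adjusted p = 0.05 to 0.055). *COR28*, its paralog, was at 15.2, 23.2 and 17.38 CPM at 16w and had no count in the 3 libraries at 16w+5dLD, which makes it at least 365-fold lower (against 3 counts over the group, adjusted p = 3.4e-05). Of 10 upstream cold regulators, *ZAT10* and *ZAT12* rose and none fell (median -0.067), and both calls rested on 1 library, as given below with the stress genes. The count of lower regulators was 1 without 16w+5dLD replicate 2, and it was 2 in the return after 12w.

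Genes for raffinose, proline and unsaturated lipids fell where they were called, with 1 exception. *GOLS3*, a cold-induced galactinol synthase of the raffinose pathway, was at 344, 384 and 386 CPM at 16w and 4.93, 5.40 and 6.82 CPM at 16w+5dLD (log2 fold change -6.02 with an SE of 1.53, adjusted p = 0.0063). It was the single call among 6 genes of that pathway (median 0.24), and *GOLS1* was at 135, 133 and 110.0 CPM at 16w and 41.7, 48.4 and 57.9 CPM at 16w+5dLD without passing the test (log2 fold change -1.35 with an SE of 0.60, adjusted p = 0.1). *P5CS1*, the main enzyme of stress-induced proline synthesis, was at 509, 481 and 402 CPM at 16w and 166, 152 and 154 CPM at 16w+5dLD (log2 fold change -1.56 with an SE of 0.30, adjusted p = 0.00078). *P5CS2*, its paralog, was at 322, 308 and 358 CPM at 16w and 175, 154 and 128 CPM at 16w+5dLD (log2 fold change -1.11 with an SE of 0.16, adjusted p = 0.0001). *PRODH1*, which degrades proline, was at 8.10, 0 and 8.64 CPM at 16w and 17.04, 22.4 and 16.8 CPM at 16w+5dLD and did not pass the test (log2 fold change 1.75 with an SE of 0.78, adjusted p = 0.11). Thus 2 of 8 proline genes fell and 1 rose (median 0.095). The gene that rose was *PRODH2*, named after its values were seen, with no count at 16w and a mean of 3.49 CPM at 16w+5dLD, and the count of higher genes was 0 without 16w replicate 1 or 3 or 16w+5dLD replicate 1, 2 or 3. *FAD2*, the oleate desaturase of the endoplasmic reticulum, was at 1346, 1241 and 1398 CPM at 16w and 419, 403 and 408 CPM at 16w+5dLD (log2 fold change -1.70 with an SE of 0.34, adjusted p = 0.001). *ADS2*, an acyl-CoA desaturase needed in *A. thaliana* at low temperature, was at 140.2, 140.2 and 143 CPM at 16w and 59.7, 67.7 and 66.9 CPM at 16w+5dLD (log2 fold change -1.12 with an SE of 0.18, adjusted p = 0.00019). These were 2 calls among 7 desaturases, none of which rose (median 0.27).

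Light and temperature regulators of growth moved in both directions, 2 up and 2 down of 12 tested (median -0.025). *PIF5*, a bHLH factor that promotes elongation and is repressed by the evening complex, was at 309, 289.6 and 387 CPM at 16w and 19.1, 25.0 and 22.3 CPM at 16w+5dLD. It had been high in cold against 37.1 ± 18.5 CPM at 0w and returned to that range (log2 fold change -3.89 with an SE of 0.66, adjusted p = 0.0003). *PIF3* was at 76.2, 102 and 76.6 CPM at 16w and 36.8, 18.8 and 28.3 CPM at 16w+5dLD (log2 fold change -1.60 with an SE of 0.45, adjusted p = 0.012), but its call was lost without 16w+5dLD replicate 2 (log2 fold change -1.39, adjusted p = 0.057), and the count of lower genes was then 1. *PIF4*, the main thermosensory PIF, was at 69.5, 90.3 and 96.2 CPM at 16w and 69.2, 47.8 and 68.3 CPM at 16w+5dLD and did not pass (log2 fold change -0.47 with an SE of 0.25, adjusted p = 0.18). *ATHB2*, a homeobox gene induced by PIFs in shade, was at 21.8, 19.2 and 12.6 CPM at 16w and 83.8, 78.2 and 92.8 CPM at 16w+5dLD (log2 fold change 2.25 with an SE of 0.27, adjusted p = 2.6e-05). *PHYB*, the photoreceptor and thermosensor, was at 56.1, 58.2 and 47.5 CPM at 16w and 121, 124 and 139.9 CPM at 16w+5dLD (log2 fold change 1.25 with an SE of 0.16, adjusted p = 4.3e-05). Both rose with the 3 libraries after the return above all in cold.

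Flowering regulators fell where they changed, 3 of 11 (median -0.65). *SOC1*, the MADS-box integrator that promotes flowering, was at 129, 100.7 and 93.7 CPM at 16w and 30.9, 41.3 and 41.0 CPM at 16w+5dLD (log2 fold change -1.51 with an SE of 0.38, adjusted p = 0.0058) and stayed above its 0w level of 11.05 ± 5.08 CPM (log2 difference 1.77, adjusted p = 0.003). *SVP*, a floral repressor, was at 247, 269 and 344 CPM at 16w and 131, 142 and 126 CPM at 16w+5dLD (log2 fold change -1.11 with an SE of 0.16, adjusted p = 0.0001). Its call was lost without 16w replicate 3 (log2 fold change -0.96, adjusted p = 0.00092). *SMZ*, an *AP2*-type floral repressor, was at 36.4, 35.8 and 33.2 CPM at 16w and 14.4, 12.6 and 15.2 CPM at 16w+5dLD (log2 fold change -1.32 with an SE of 0.29, adjusted p = 0.0022). None of 8 SPL phase-change factors passed the test (median -0.34).

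Genes of sugar transport and sucrose metabolism moved in both directions. Of 17 genes tested, 3 rose and 3 fell (median -0.0031), and the count of higher genes was 1 without 16w replicate 2 or 3. *STP13*, a hexose importer, was at 161, 157 and 164 CPM at 16w and 39.3, 47.7 and 18.5 CPM at 16w+5dLD (log2 fold change -2.19 with an SE of 0.47, adjusted p = 0.0019). *SPS1F*, a sucrose phosphate synthase, was at 241, 181 and 196 CPM at 16w and 53.3, 67.9 and 61.0 CPM at 16w+5dLD (log2 fold change -1.76 with an SE of 0.32, adjusted p = 0.00047). *TMT2*, which loads sugar into the vacuole, was at 309, 309 and 330.4 CPM at 16w and 134, 148 and 129 CPM at 16w+5dLD (log2 fold change -1.21 with an SE of 0.31, adjusted p = 0.0069). All 3 fell, with no overlap between the groups. *SUC1*, a sucrose importer, was at 57.8, 61.2 and 50.5 CPM at 16w and 179, 179 and 177 CPM at 16w+5dLD (log2 fold change 1.66 with an SE of 0.25, adjusted p = 0.00014). *VI2*, a vacuolar invertase, was at 242, 141 and 149 CPM at 16w and 344, 455 and 289.8 CPM at 16w+5dLD (log2 fold change 1.03 with an SE of 0.36, adjusted p = 0.037), with the call lost without 16w replicate 2 or 3 or 16w+5dLD replicate 1 or 2 (log2 fold change 0.84 to 1.07, adjusted p = 0.063 to 0.14). *SUS4*, a sucrose synthase that is also induced by low oxygen, was at 90.8, 55.0 and 39.9 CPM at 16w and 113, 158 and 172 CPM at 16w+5dLD (log2 fold change 1.25 with an SE of 0.37, adjusted p = 0.016), with the call lost without 16w replicate 2 or 3 or 16w+5dLD replicate 3 (log2 fold change 1.02 to 1.18, adjusted p = 0.054 to 0.08). *SUC2*, the sucrose loader of the phloem, was at 51.3, 49.6 and 54.0 CPM at 16w and 45.7, 73.6 and 59.5 CPM at 16w+5dLD and did not pass (log2 fold change 0.21 with an SE of 0.20, adjusted p = 0.49).

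Starch genes moved in both directions as well. Of 22 tested, 2 rose and 3 fell (median 0.038). *GBSS1*, the granule-bound starch synthase, was at 42.0, 31.2 and 31.6 CPM at 16w and 123, 107 and 119 CPM at 16w+5dLD (log2 fold change 1.73 with an SE of 0.24, adjusted p = 7.5e-05). *SS4*, which initiates granules, was at 19.3, 12.5 and 21.4 CPM at 16w and 51.2, 34.5 and 46.7 CPM at 16w+5dLD (log2 fold change 1.32 with an SE of 0.38, adjusted p = 0.013), and its call was lost without 16w replicate 2 (log2 fold change 1.12, adjusted p = 0.066). *PHS2*, a cytosolic glucan phosphorylase, was at 222, 208 and 179 CPM at 16w and 59.9, 51.8 and 61.3 CPM at 16w+5dLD (log2 fold change -1.82 with an SE of 0.32, adjusted p = 0.00045), though its count equalled that of a neighbouring gene in 2 of the 6 libraries. *SS1*, a soluble starch synthase, was at 109.5, 89.7 and 92.1 CPM at 16w and 36.9, 43.7 and 52.5 CPM at 16w+5dLD (log2 fold change -1.13 with an SE of 0.23, adjusted p = 0.0011). *BAM3*, the beta-amylase of starch breakdown, was at 246, 205 and 216 CPM at 16w and 87.0, 124 and 98.7 CPM at 16w+5dLD (log2 fold change -1.11 with an SE of 0.28, adjusted p = 0.0063), with the call lost without 16w+5dLD replicate 1 (log2 fold change -0.996, adjusted p = 0.033). *SEX1*, the glucan water dikinase, was at 259, 229.9 and 225 CPM at 16w and 172, 187 and 178 CPM at 16w+5dLD, a change below 2-fold (log2 fold change -0.41 with an SE of 0.087, adjusted p = 0.0017).

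Of 16 markers of sugar starvation and dormancy, 4 fell, 12 did not pass and none was called higher, and 7 had a positive fold change (median -0.64). *DRM2*, a dormancy-associated gene, was at 664, 846 and 820.2 CPM at 16w and 20.5, 33.9 and 26.7 CPM at 16w+5dLD. The level after the return was also below the 179 ± 65.7 CPM of 0w (log2 fold change -4.85 with an SE of 0.79, adjusted p = 0.00023). *DRM1*, its relative, was at 365, 446 and 500.3 CPM at 16w and 99.6, 121 and 82.6 CPM at 16w+5dLD (log2 fold change -2.11 with an SE of 0.35, adjusted p = 0.00026). *SEN5*, a dark-inducible gene, was at 211, 285 and 380.2 CPM at 16w and 15.3, 25.4 and 18.4 CPM at 16w+5dLD (log2 fold change -3.89 with an SE of 0.54, adjusted p = 8.3e-05). All 3 had been higher at 16w than at 0w in the group means.

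Nitrogen assimilation genes rose in part. Of 20 tested, 6 rose and 2 fell (median 0.80), and the count of higher genes was 3 without 16w+5dLD replicate 1. *NIR1*, nitrite reductase, was at 72.1, 64.5 and 57.0 CPM at 16w and 195, 149 and 168 CPM at 16w+5dLD (log2 fold change 1.40 with an SE of 0.21, adjusted p = 0.00014). *NIA1*, a nitrate reductase, was at 53.0, 58.8 and 40.1 CPM at 16w and 126, 95.1 and 111 CPM at 16w+5dLD (log2 fold change 1.13 with an SE of 0.29, adjusted p = 0.0067), with the call lost without 16w replicate 3 (log2 fold change 0.98, adjusted p = 0.04). *GLN1;1*, a cytosolic glutamine synthetase, was at 136, 124 and 109.9 CPM at 16w and 386, 399 and 379 CPM at 16w+5dLD (log2 fold change 1.65 with an SE of 0.23, adjusted p = 8.4e-05). Each of these had non-overlapping groups. *NRT1.1*, the nitrate transporter and sensor, was at 205, 122 and 70.3 CPM at 16w and 54.6, 48.5 and 46.4 CPM at 16w+5dLD (log2 fold change -1.41 with an SE of 0.26, adjusted p = 0.00052), and its call was lost without 16w replicate 1 (log2 fold change -0.95, adjusted p = 0.0037). *GDH1*, a glutamate dehydrogenase, was at 55.4, 72.5 and 75.7 CPM at 16w and 14.9, 9.27 and 12.9 CPM at 16w+5dLD (log2 fold change -2.45 with an SE of 0.88, adjusted p = 0.043), with the call lost without 16w replicate 1, 2 or 3 or 16w+5dLD replicate 1, 2 or 3 (log2 fold change -2.28 to -2.61, adjusted p = 0.059 to 0.12).

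Most polysaccharide genes of the secondary wall were higher after the return. Of 16 polysaccharide genes 11 rose, none fell and all 16 had a positive fold change (median 2.03). *FLA11*, a fasciclin-like protein of fibre and vessel walls, was at 19.01, 25.6 and 26.54 CPM at 16w and 127, 135 and 223 CPM at 16w+5dLD (log2 fold change 2.77 with an SE of 0.52, adjusted p = 0.0007). *GUX2*, which adds glucuronic acid to xylan, was at 13.8, 9.67 and 15.2 CPM at 16w and 104, 104 and 86.3 CPM at 16w+5dLD (log2 fold change 2.93 with an SE of 0.46, adjusted p = 0.00018). *IRX8*, needed for xylan synthesis, was at 13.5, 11.8 and 11.7 CPM at 16w and 70.4, 96.2 and 137 CPM at 16w+5dLD (log2 fold change 3.03 with an SE of 1.04, adjusted p = 0.036). The 3 libraries after the return lay several times above those in cold for each, but the *IRX8* call was lost without 16w replicate 1, 2 or 3 or 16w+5dLD replicate 2 or 3 (log2 fold change 2.75 to 3.11, adjusted p = 0.058 to 0.099). The cellulose synthases of the secondary wall were higher in every library after the return without passing the test. *CESA4* was at 0, 103 and 119 CPM at 16w and 283, 311 and 495 CPM at 16w+5dLD (adjusted p = 0.49), *CESA7* at 88.7, 59.3 and 78.0 CPM at 16w and 226, 223 and 333 CPM at 16w+5dLD (adjusted p = 0.18) and *CESA8* at 67.4, 49.3 and 56.1 CPM at 16w and 223, 221 and 379.9 CPM at 16w+5dLD (adjusted p = 0.069). Their 0w means were 837 ± 99.1 CPM, 649 ± 95.3 CPM and 575 ± 66.8 CPM, so the levels at 16w+5dLD lay between cold and 0w. Against 0w, 5 of the 16 genes were still lower at 16w+5dLD.

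Of 19 lignin genes 9 rose and none fell (median 1.28). *COMT1*, an O-methyltransferase of monolignol synthesis, was at 217, 182 and 197 CPM at 16w and 832, 810.3 and 797 CPM at 16w+5dLD. Its level after the return was close to the 864 ± 104 CPM of 0w (log2 fold change 2.03 with an SE of 0.31, adjusted p = 0.00014). *LAC4*, a laccase that polymerises lignin, was at 48.8, 23.3 and 39.4 CPM at 16w and 176, 172 and 274 CPM at 16w+5dLD (log2 fold change 2.48 with an SE of 0.57, adjusted p = 0.0031). *LAC17*, its partner, was at 18.9, 13.6 and 17.44 CPM at 16w and 47.7, 41.2 and 50.8 CPM at 16w+5dLD, higher in each library but short of the threshold (log2 fold change 1.48 with an SE of 1.09, adjusted p = 0.34). *PRX64*, a lignin peroxidase, was at 7.48, 5.86 and 6.19 CPM at 16w and 102, 83.4 and 164 CPM at 16w+5dLD, with each library after the return far above the cold libraries (log2 fold change 4.16 with an SE of 0.92, adjusted p = 0.0024). Against 0w, 0 of the 19 lignin genes were called lower and 0 higher.

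Regulators of vessels and secondary walls were called in both directions. Of 24 tested, 5 rose and 1 fell (median 1.45), and the count of higher genes was 2 without 16w replicate 3 or 16w+5dLD replicate 3 and 3 without 16w replicate 2. *MC9*, a metacaspase of dying vessel cells, was at 12.2, 9.43 and 8.22 CPM at 16w and 54.2, 71.3 and 39.5 CPM at 16w+5dLD (log2 fold change 2.46 with an SE of 0.62, adjusted p = 0.0056). *XCP1*, a xylem cysteine peptidase, was at 70.9, 57.5 and 47.2 CPM at 16w and 179, 255 and 312 CPM at 16w+5dLD (log2 fold change 2.09 with an SE of 0.62, adjusted p = 0.016), with the call lost without 16w replicate 2 or 3 or 16w+5dLD replicate 3 (log2 fold change 1.89 to 2.08, adjusted p = 0.051 to 0.064). *XCP2*, a second such peptidase, was at 42.2, 27.2 and 21.9 CPM at 16w and 90.6, 131 and 164 CPM at 16w+5dLD (log2 fold change 2.08 with an SE of 0.66, adjusted p = 0.025), and its count equalled that of a neighbouring gene in 1 of the 6 libraries. Its call was lost without 16w replicate 2 or 3 or 16w+5dLD replicate 3 (log2 fold change 1.86 to 2.002, adjusted p = 0.072 to 0.093). *SND3*, a NAC factor, fell, with 72.4, 119 and 98.2 CPM at 16w and 35.6, 51.9 and 42.0 CPM at 16w+5dLD (log2 fold change -1.16 with an SE of 0.23, adjusted p = 0.00089), and was not called without 16w replicate 2 (log2 fold change -0.98, adjusted p = 0.0069). The master switches had few counts. *MYB46* was at 2.72, 1.09 and 1.87 CPM at 16w and 6.201, 6.81 and 15.04 CPM at 16w+5dLD (log2 fold change 2.2996 with an SE of 1.04, adjusted p = 0.11), *MYB83* at 1.38, 0 and 2.29 CPM at 16w and 4.59, 1.94 and 4.30 CPM at 16w+5dLD (log2 fold change 1.55 with an SE of 1.63, adjusted p = 0.54) and *VND7* at 0, 1.15 and 0 CPM at 16w and 0, 0.939 and 0 CPM at 16w+5dLD (log2 fold change -0.29 with an SE of 2.70, adjusted p = 0.97), and none passed the test.

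Most suberin genes were higher after the return. Of 14 tested, 9 rose and none fell (median 2.28). *CYP86A1*, the fatty acid hydroxylase of suberin, was at 23.5, 14.5 and 27.4 CPM at 16w and 132, 138 and 85.1 CPM at 16w+5dLD (log2 fold change 2.44 with an SE of 0.36, adjusted p = 0.00011). *ASFT*, the feruloyl transferase, was at 23.7, 0 and 20.04 CPM at 16w and 211, 177 and 119 CPM at 16w+5dLD (log2 fold change 3.53 with an SE of 0.96, adjusted p = 0.0099). *KCS2*, which elongates fatty acids for suberin, was at 4.05, 0.665 and 0.572 CPM at 16w and 32.2, 33.8 and 16.3 CPM at 16w+5dLD (log2 fold change 3.95 with an SE of 0.78, adjusted p = 0.00095), and without 16w replicate 1 the log2 fold change was 5.46, adjusted p = 0.00032. *GPAT5*, an acyltransferase, was at 0, 0 and 5.72 CPM at 16w and 30.6, 32.3 and 18.6 CPM at 16w+5dLD (log2 fold change 3.82 with an SE of 1.11, adjusted p = 0.015), and replicate 3 was its only library at 16w with a count, so that the size of this change rests on it. The 3 libraries after the return stood above all 3 in cold for each of these genes. In a fit of these 6 libraries alone *ASFT* and *GPAT5* were not called. At 0w the means were 131 ± 27.2 CPM for *CYP86A1*, 89.0 ± 7.64 CPM for *ASFT* and 19.4 ± 2.42 CPM for *GPAT5*. Against 0w, 1 of the 14 genes was higher and 1 lower.

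Wax and cutin genes rose in part, 6 of 15 with none lower (median 0.43). *GPAT6*, an acyltransferase of cutin, had no count in the 3 libraries at 16w and was at 19.4, 18.6 and 13.3 CPM at 16w+5dLD, at least 315-fold higher (adjusted p = 4.2e-10). It was at 23.5 ± 4.88 CPM at 0w. *LACS2*, an acyl-CoA synthetase of cutin, was at 5.07, 2.96 and 12.5 CPM at 16w and 54.0, 45.4 and 37.4 CPM at 16w+5dLD (log2 fold change 2.73 with an SE of 0.45, adjusted p = 0.00025), and without 16w replicate 3 the log2 fold change was 3.501, adjusted p = 0.00016. *GPAT4* was at 22.3, 9.55 and 18.7 CPM at 16w and 70.0, 63.9 and 48.4 CPM at 16w+5dLD (log2 fold change 1.85 with an SE of 0.39, adjusted p = 0.0015). These members act in cutin synthesis. The 5 epidermis markers summed to 24.4 to 42.9 CPM at 16w and 23.5 to 26.3 CPM at 16w+5dLD, and the part of epidermal cells in these changes was not tested.

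Some wall-loosening genes were called, most of them higher. Of 16 expansins 5 rose and none fell (median 1.57). *EXPA6* was at 17.1, 19.2 and 18.4 CPM at 16w and 102, 118 and 104 CPM at 16w+5dLD (log2 fold change 2.57 with an SE of 0.37, adjusted p = 9.1e-05). *EXPB3* was at 6.92, 4.23 and 3.23 CPM at 16w and 52.3, 44.1 and 52.7 CPM at 16w+5dLD (log2 fold change 3.37 with an SE of 0.59, adjusted p = 0.00037). *EXPA10* was at 11.5, 6.17 and 6.77 CPM at 16w and 26.7, 15.6 and 25.9 CPM at 16w+5dLD (log2 fold change 1.48 with an SE of 0.40, adjusted p = 0.0088). Each had non-overlapping groups. Of 15 XTH genes 5 rose and 2 fell (median 0), and the count of higher genes was 3 without 16w+5dLD replicate 2. *XTH31* was at 22.0, 13.96 and 12.4 CPM at 16w and 113, 93.1 and 113 CPM at 16w+5dLD (log2 fold change 2.72 with an SE of 0.37, adjusted p = 7.4e-05) and *XTH32* at 25.1, 23.64 and 18.9 CPM at 16w and 85.2, 71.0 and 89.5 CPM at 16w+5dLD (log2 fold change 1.86 with an SE of 0.28, adjusted p = 0.00014). *XTH16* fell and was at 98.1, 99.0 and 99.5 CPM at 16w and 16.9, 17.1 and 13.1 CPM at 16w+5dLD, with a spread of under 2 CPM between the 3 cold libraries (log2 fold change -2.65 with an SE of 0.20, adjusted p = 2.7e-07). *XTH20* was at 11.1, 13.3 and 7.91 CPM at 16w and 1.71, 0.822 and 0 CPM at 16w+5dLD (log2 fold change -3.66 with an SE of 1.27, adjusted p = 0.04), and its call was lost without 16w replicate 1, 2 or 3 or 16w+5dLD replicate 2 or 3 (log2 fold change -3.08 to -3.84, adjusted p = 0.055 to 0.1). Without 16w+5dLD replicate 1 its log2 fold change was -4.72, adjusted p = 0.042.

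Few other growth genes were called. Of 22 genes of primary wall and growth 2 rose (median 0.50), among them *FLA2*, a fasciclin-like protein, at 87.9, 85.5 and 66.0 CPM at 16w and 194, 209.7 and 249 CPM at 16w+5dLD (log2 fold change 1.45 with an SE of 0.30, adjusted p = 0.0012). None of 3 tubulins passed the test (median 0.66). Of 13 aquaporins, *PIP1;5* rose and was at 36.4, 28.0 and 29.5 CPM at 16w and 91.3, 97.6 and 99.9 CPM at 16w+5dLD (log2 fold change 1.62 with an SE of 0.22, adjusted p = 7.8e-05) and *PIP2;6* fell and was at 326, 314 and 274 CPM at 16w and 140.1, 123 and 147 CPM at 16w+5dLD (log2 fold change -1.15 with an SE of 0.19, adjusted p = 0.00027). Both are plasma membrane water channels, and they moved in opposite directions.

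Cell division genes rose in small numbers. Of 18 replication genes 3 rose (median 1.02). *PCNA1*, the sliding clamp, was at 14.3, 14.6 and 11.2 CPM at 16w and 31.2, 28.2 and 32.4 CPM at 16w+5dLD (log2 fold change 1.19 with an SE of 0.19, adjusted p = 0.00024). *TSO2*, a subunit of ribonucleotide reductase, was at 14.1, 12.3 and 13.2 CPM at 16w and 42.3, 38.9 and 76.5 CPM at 16w+5dLD (log2 fold change 1.99 with an SE of 0.35, adjusted p = 0.0004), and its count equalled that of a neighbouring gene in 1 of the 6 libraries. *ICU2*, the catalytic subunit of DNA polymerase alpha, had no count at 16w and 12.5, 3.52 and 14.2 CPM at 16w+5dLD, at least 185-fold higher (adjusted p = 0.042), with the call lost without 16w replicate 1, 2 or 3 or 16w+5dLD replicate 1, 2 or 3 (adjusted p = 0.052 to 0.1). It was at 24.6, 0 and 11.2 CPM at 21w+5dLD, a spread between replicates that the bound does not cover. *MCM2*, a helicase subunit, was at 17.2, 20.9 and 9.63 CPM at 16w and 14.8, 17.3 and 30.7 CPM at 16w+5dLD and overlapped (log2 fold change 0.40 with an SE of 0.85, adjusted p = 0.8). Of 23 genes of mitosis and cytokinesis 2 rose and none fell (median 1.66), with a count of 6 without 16w replicate 1. *KN* (KNOLLE), the syntaxin of the cell plate, was at 11.8, 10.3 and 8.54 CPM at 16w and 25.7, 25.2 and 35.5 CPM at 16w+5dLD (log2 fold change 1.496 with an SE of 0.23, adjusted p = 0.00016). *CYCB1;1*, a mitotic cyclin, was at 0, 1.21 and 0 CPM at 16w and 0, 0 and 2.15 CPM at 16w+5dLD (log2 fold change 0.84 with an SE of 2.70, adjusted p = 0.88), near the limit of detection. Of 12 G1 cyclins and inhibitors 2 rose. *CYCD3;2* was at 6.36, 5.68 and 6.25 CPM at 16w and 12.1, 11.9 and 15.4 CPM at 16w+5dLD (log2 fold change 1.105 with an SE of 0.28, adjusted p = 0.0068), with the call lost without 16w+5dLD replicate 3 (log2 fold change 0.98, adjusted p = 0.032). *ARGOS-LIKE*, a promoter of organ growth, was at 1.74, 0.484 and 0.208 CPM at 16w and 5.52, 9.63 and 7.10 CPM at 16w+5dLD (log2 fold change 3.18 with an SE of 0.75, adjusted p = 0.0038), or 4.40, adjusted p = 0.0012 without 16w replicate 1, and it was not called in a fit of these 6 libraries alone.

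Cambium, phloem and ribosome genes were mostly not called. Of 23 cambium and vascular genes 2 rose and 1 fell (median 0.13). *RUL1*, a receptor-like kinase that promotes cambium activity, was at 18.4, 14.5 and 10.9 CPM at 16w and 34.5, 32.2 and 42.7 CPM at 16w+5dLD (log2 fold change 1.32 with an SE of 0.24, adjusted p = 0.00048). *KNAT1*, a KNOX factor of the stem, was at 349, 384 and 318 CPM at 16w and 163, 161 and 162 CPM at 16w+5dLD, with 3 nearly equal libraries after the return (log2 fold change -1.11 with an SE of 0.20, adjusted p = 0.00056). *PEAR2*, a DOF factor of the protophloem, was at 0.769, 0 and 0 CPM at 16w and 5.71, 5.11 and 7.66 CPM at 16w+5dLD (log2 fold change 4.54 with an SE of 1.59, adjusted p = 0.04), and its call was lost without 16w replicate 2 or 3 or 16w+5dLD replicate 1, 2 or 3 (log2 fold change 3.96 to 4.66, adjusted p = 0.056 to 0.11). Its count at 16w came from replicate 1 alone, so that the size of the change rests on it. *WOX4* was at 47.6, 39.5 and 31.5 CPM at 16w and 39.4, 49.0 and 31.8 CPM at 16w+5dLD (log2 fold change 0.020 with an SE of 0.17, adjusted p = 0.97) and *PXY*, the receptor of the cambium signal TDIF, at 322, 312 and 297 CPM at 16w and 305, 298 and 365 CPM at 16w+5dLD (log2 fold change 0.057 with an SE of 0.15, adjusted p = 0.84), so the groups of both overlapped. None of 11 phloem markers and none of 19 ribosome biogenesis genes passed, with medians of 0.29 and -0.44.

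Most photosynthesis genes of the stem did not pass the test. Of 34 tested, 2 rose and 2 fell (median 0.35), and the count of higher genes was 1 without 16w replicate 3 or 16w+5dLD replicate 1 and 4 without 16w replicate 1 or 16w+5dLD replicate 2. *LHCB1.3*, an antenna protein of photosystem II, was at 18868, 18416 and 17265 CPM at 16w and 4386, 3768 and 4301 CPM at 16w+5dLD (log2 fold change -2.13 with an SE of 0.33, adjusted p = 0.00015). The fall of this single gene was about as large as that of the summed level of 34 photosynthesis genes. The sum was 26318 to 28454 CPM at 16w and 12566 to 15519 CPM at 16w+5dLD. Of the 34 genes, 29 had a positive and 4 a negative fold change. *LHCB3* was at 1127, 1062 and 1025 CPM at 16w and 493, 439 and 491 CPM at 16w+5dLD (log2 fold change -1.18 with an SE of 0.18, adjusted p = 0.00013). *PETE1*, a plastocyanin, was at 14.9, 14.8 and 18.7 CPM at 16w and 43.3, 32.1 and 42.1 CPM at 16w+5dLD (log2 fold change 1.28 with an SE of 0.24, adjusted p = 0.00076). *FBA2*, an aldolase of the Calvin cycle, was at 140.0, 147 and 102 CPM at 16w and 452, 252 and 363 CPM at 16w+5dLD (log2 fold change 1.46 with an SE of 0.41, adjusted p = 0.013), with the call lost without 16w replicate 3 or 16w+5dLD replicate 1 (log2 fold change 1.25 to 1.31, adjusted p = 0.053 to 0.059). None of 9 genes of chlorophyll synthesis and chloroplast regulation passed (median -0.050).

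Few glucosinolate genes were called. Of 21 aliphatic glucosinolate genes 2 rose and none fell (median -0.23), and 17 of the 21 were lower than at 0w after the return, against 15 at 16w. *MYB28*, the main regulator, was at 73.1, 85.1 and 60.1 CPM at 16w and 79.1, 35.2 and 71.7 CPM at 16w+5dLD (log2 fold change -0.23 with an SE of 0.32, adjusted p = 0.67) with 237 ± 26.9 CPM at 0w. *CYP79F1*, the entry enzyme, was at 123, 140.1 and 61.4 CPM at 16w and 87.8, 16.5 and 74.5 CPM at 16w+5dLD (log2 fold change -0.86 with an SE of 0.48, adjusted p = 0.2) with 351 ± 81.6 CPM at 0w. *CYP83A1* was at 561, 229 and 137 CPM at 16w and 196, 40.1 and 329.6 CPM at 16w+5dLD (log2 fold change -0.71 with an SE of 0.62, adjusted p = 0.44), and its count equalled that of a neighbouring gene in 2 of the 6 libraries. The lowest library after the return was replicate 2 for these 3 genes, and without it the log2 fold change was 0.052, adjusted p = 0.96 for *MYB28*, -0.42, adjusted p = 0.54 for *CYP79F1* and -0.23, adjusted p = 0.85 for *CYP83A1*. Without 16w replicate 1 that of *CYP83A1* was 0.051, adjusted p = 0.98. *GTR2*, a glucosinolate transporter, was at 53.4, 39.8 and 38.5 CPM at 16w and 103, 148 and 104 CPM at 16w+5dLD (log2 fold change 1.43 with an SE of 0.26, adjusted p = 0.00047). *GSTF11*, a glutathione transferase of the pathway, was at 14.8, 4.47 and 3.54 CPM at 16w and 37.9, 17.43 and 32.9 CPM at 16w+5dLD (log2 fold change 1.95 with an SE of 0.47, adjusted p = 0.0041, and 2.88, adjusted p = 0.00036 without 16w replicate 1), though its count equalled that of a neighbouring gene in 3 of the 6 libraries and it was not called in a fit of these 6 libraries alone. Of 12 indolic genes 1 rose and 1 fell, and *CYP83B1* was at 118, 123 and 105 CPM at 16w and 40.2, 37.4 and 44.0 CPM at 16w+5dLD (log2 fold change -1.51 with an SE of 0.34, adjusted p = 0.0027). *CHS*, chalcone synthase of the flavonoid pathway, had no count at 16w and 8.54, 9.33 and 2.29 CPM at 16w+5dLD, at least 124-fold higher (adjusted p = 0.00081), and was the single call of 16 flavonoid genes (median 0.32). *DFR*, a later enzyme, was at 0 in 5 libraries and at 5.37 CPM in 16w+5dLD replicate 1.

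Few auxin genes were called. Of 20 Aux/IAA genes 3 fell and none rose (median -0.22). *IAA1* was at 24.1, 18.3 and 22.2 CPM at 16w and 4.78, 10.6 and 5.33 CPM at 16w+5dLD (log2 fold change -1.64 with an SE of 0.33, adjusted p = 0.0012), *IAA3* at 11.3, 9.19 and 7.13 CPM at 16w and 2.64, 2.29 and 3.64 CPM at 16w+5dLD (log2 fold change -1.69 with an SE of 0.41, adjusted p = 0.0044) and *IAA2* at 64.3, 58.3 and 69.9 CPM at 16w and 26.8, 27.6 and 39.1 CPM at 16w+5dLD (log2 fold change -1.04 with an SE of 0.24, adjusted p = 0.0034). The *IAA2* call was lost without 16w replicate 3 or 16w+5dLD replicate 1 or 2 (log2 fold change -0.94 to -0.97, adjusted p = 0.015 to 0.02). *IAA19*, a growth-related member, was at 9.53, 8.34 and 8.59 CPM at 16w and 10.2, 10.6 and 15.5 CPM at 16w+5dLD and did not pass (log2 fold change 0.45 with an SE of 0.21, adjusted p = 0.12). *ARF4*, a response factor, was at 282, 233 and 215 CPM at 16w and 104, 104 and 115 CPM at 16w+5dLD (log2 fold change -1.18 with an SE of 0.23, adjusted p = 0.00093), the single call of 16 receptors and ARFs. Of 7 metabolism genes 2 rose. *GH3.6*, which conjugates auxin, was at 25.5, 32.3 and 25.7 CPM at 16w and 71.1, 123 and 87.9 CPM at 16w+5dLD (log2 fold change 1.76 with an SE of 0.36, adjusted p = 0.0012). *DAO2*, an auxin oxidase, was at 5.996, 4.53 and 4.74 CPM at 16w and 22.4, 19.7 and 21.8 CPM at 16w+5dLD (log2 fold change 2.06 with an SE of 0.45, adjusted p = 0.0023). *PIN4*, an auxin exporter, was at 36.1, 34.3 and 37.7 CPM at 16w and 89.7, 86.3 and 71.3 CPM at 16w+5dLD (log2 fold change 1.19 with an SE of 0.22, adjusted p = 0.00058), the single call of 16 transport genes, where the count was 2 without 16w+5dLD replicate 3 and 4 without 16w replicate 1. *SAUR53* was at 1.08, 1.39 and 0.625 CPM at 16w and 8.74, 4.64 and 7.52 CPM at 16w+5dLD (log2 fold change 2.75 with an SE of 0.49, adjusted p = 0.00046), 1 of 2 calls among 23 SAUR genes (median 0.63, or 0.57 with genes at 0 set to their bound).

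The cytokinin genes that rose were oxidases and type-A response regulators. Of 19 tested, 4 rose and none fell (median 0.55), with a count of 2 without 16w replicate 1 or 3 or 16w+5dLD replicate 3. *CKX7*, a cytokinin oxidase, was at 9.53, 9.97 and 7.39 CPM at 16w and 41.7, 30.2 and 34.8 CPM at 16w+5dLD (log2 fold change 1.99 with an SE of 0.30, adjusted p = 0.00012). *CKX6*, another oxidase, was at 14.9, 12.6 and 13.6 CPM at 16w and 30.03, 29.6 and 61.1 CPM at 16w+5dLD (log2 fold change 1.55 with an SE of 0.27, adjusted p = 0.0004). *ARR9*, a type-A response regulator, was at 7.995, 10.6 and 6.14 CPM at 16w and 16.6, 15.6 and 26.4 CPM at 16w+5dLD (log2 fold change 1.24 with an SE of 0.41, adjusted p = 0.028), with the call lost without 16w replicate 1 or 3 or 16w+5dLD replicate 3 (log2 fold change 0.96 to 1.22, adjusted p = 0.074 to 0.13). Of 25 gibberellin genes 2 rose and 2 fell (median 0.16). *GASA1*, a gibberellin-regulated peptide, was at 43.0, 66.6 and 90.2 CPM at 16w and 1.03, 1.53 and 1.31 CPM at 16w+5dLD (log2 fold change -5.69 with an SE of 1.24, adjusted p = 0.0021), and its count equalled that of a neighbouring gene in 1 of the 6 libraries. *RGL3*, a DELLA repressor, was at 26.1, 26.3 and 29.1 CPM at 16w and 10.6, 13.1 and 10.4 CPM at 16w+5dLD (log2 fold change -1.25 with an SE of 0.21, adjusted p = 0.00026). Of 24 brassinosteroid genes 1 rose and 1 fell. *ROT3*, a hydroxylase of the pathway, was at 9.79, 7.31 and 6.87 CPM at 16w and 29.4, 26.7 and 25.6 CPM at 16w+5dLD (log2 fold change 1.77 with an SE of 0.28, adjusted p = 0.0002). *BZR1*, the transcription factor of the response, was at 169, 165 and 169 CPM at 16w and 88.0, 86.5 and 77.4 CPM at 16w+5dLD, just past the 2-fold limit (log2 fold change -1.001 with an SE of 0.13, adjusted p = 5.7e-05) and not called without 16w replicate 1 or 3 or 16w+5dLD replicate 3 (log2 fold change -0.94 to -0.99, adjusted p = 0.00029 to 0.00046).

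Genes of abscisic acid moved in both directions, 6 up and 4 down of 27 (median 0.020), and the count of higher genes was 2 without 16w replicate 1 or 2 or 16w+5dLD replicate 2. *PYL4* and *PYL6*, a pair of receptors, were among the genes that fell. *PYL4* was at 135, 146 and 136 CPM at 16w and 64.0, 71.4 and 52.7 CPM at 16w+5dLD (log2 fold change -1.15 with an SE of 0.15, adjusted p = 6.1e-05) and *PYL6* at 118, 91.9 and 106 CPM at 16w and 36.4, 35.8 and 25.2 CPM at 16w+5dLD (log2 fold change -1.70 with an SE of 0.26, adjusted p = 0.00014). *ABF1*, a bZIP factor of the response, was at 84.3, 104 and 104 CPM at 16w and 17.7, 24.2 and 19.5 CPM at 16w+5dLD (log2 fold change -2.25 with an SE of 0.27, adjusted p = 2.6e-05), while *ABF2* was at 5.69, 4.35 and 8.48 CPM at 16w and 25.0, 18.7 and 18.03 CPM at 16w+5dLD (log2 fold change 1.74 with an SE of 0.35, adjusted p = 0.0013). The factors thus moved in opposite directions. *HAI1*, a phosphatase that restrains the response, was at 0, 0.302 and 1.72 CPM at 16w and 44.3, 61.5 and 15.4 CPM at 16w+5dLD (log2 fold change 5.89 with an SE of 1.797, adjusted p = 0.019), with the call lost without 16w replicate 1 or 2 (log2 fold change 5.31 to 5.55, adjusted p = 0.059 to 0.073). Without 16w replicate 3 its log2 fold change was 8.05, adjusted p = 0.021. *RD26*, a NAC factor, was at 21.5, 28.7 and 33.4 CPM at 16w and 61.1, 76.6 and 34.2 CPM at 16w+5dLD (log2 fold change 1.04 with an SE of 0.33, adjusted p = 0.024), and its call was lost without 16w replicate 1 or 2 or 16w+5dLD replicate 1 or 2 (log2 fold change 0.77 to 1.06, adjusted p = 0.058 to 0.12).

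Several stress genes were high in 1 of the 3 libraries after the return. *ZAT10*, a zinc-finger repressor, was at 4.30, 2.90 and 4.11 CPM at 16w and 8.50, 49.9 and 4.81 CPM at 16w+5dLD (log2 fold change 2.48 with an SE of 0.63, adjusted p = 0.0061), and without replicate 2 of 16w+5dLD the log2 fold change was 0.82, adjusted p = 0.2. *ZAT12* was at 8.05, 7.56 and 7.81 CPM at 16w and 13.04, 65.2 and 9.44 CPM at 16w+5dLD (log2 fold change 1.90 with an SE of 0.59, adjusted p = 0.02). It was not called without 16w replicate 1, 2 or 3 or 16w+5dLD replicate 2 (log2 fold change 0.53 to 1.93, adjusted p = 0.054 to 0.47). *ERF6*, an ethylene-responsive factor, was at 1.79, 1.93 and 1.56 CPM at 16w and 3.76, 33.2 and 4.20 CPM at 16w+5dLD (log2 fold change 2.95 with an SE of 0.87, adjusted p = 0.016), and without replicate 2 the log2 fold change was 1.17, adjusted p = 0.29. *ERF2* was at 9.23, 3.57 and 4.63 CPM at 16w and 11.6, 46.3 and 9.48 CPM at 16w+5dLD (log2 fold change 1.95 with an SE of 0.54, adjusted p = 0.011), with the call lost without 16w replicate 2 or 16w+5dLD replicate 2 (log2 fold change 0.86 to 1.69, adjusted p = 0.054 to 0.19). *XTH22*, a touch-induced XTH, was at 0, 0 and 3.33 CPM at 16w and 9.08, 154 and 4.11 CPM at 16w+5dLD (log2 fold change 5.63 with an SE of 1.77, adjusted p = 0.023), and its count equalled that of a neighbouring gene in 1 of the 6 libraries. Its call was lost without 16w replicate 1 or 2 or 16w+5dLD replicate 2 (log2 fold change 2.56 to 5.06, adjusted p = 0.069 to 0.25). At 16w its count came from replicate 3 alone. In each, replicate 2 of 16w+5dLD stood above every other library, and removing it ended the call.

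The same library was highest for genes of jasmonate and abscisic acid synthesis. *NCED3*, the rate-limiting enzyme of abscisic acid synthesis, was at 1.44, 0.484 and 1.04 CPM at 16w and 2.54, 7.98 and 2.66 CPM at 16w+5dLD (log2 fold change 2.15 with an SE of 0.62, adjusted p = 0.014), with the call lost without 16w replicate 2 or 16w+5dLD replicate 2 (log2 fold change 1.39 to 1.82, adjusted p = 0.066 to 0.11). *JAZ1*, a jasmonate repressor, was at 42.3, 29.6 and 24.1 CPM at 16w and 37.3, 152 and 66.6 CPM at 16w+5dLD (log2 fold change 1.41 with an SE of 0.36, adjusted p = 0.0065), with the call lost without 16w+5dLD replicate 2 (log2 fold change 0.70, adjusted p = 0.097), and its count equalled that of a neighbouring gene in 1 of the 6 libraries. *JAZ10* was at 2.204, 0 and 0 CPM at 16w and 6.79, 16.3 and 5.33 CPM at 16w+5dLD (log2 fold change 3.67 with an SE of 1.27, adjusted p = 0.037), with the call lost without 16w replicate 2 or 3 or 16w+5dLD replicate 2 (log2 fold change 3.02 to 3.09, adjusted p = 0.086 to 0.11). Its count at 16w came from replicate 1 alone. *AOC3*, an allene oxide cyclase, was at 31.1, 28.0 and 21.703 CPM at 16w and 50.8, 105 and 54.9 CPM at 16w+5dLD (log2 fold change 1.38 with an SE of 0.31, adjusted p = 0.0026), and was not called without 16w+5dLD replicate 2 (log2 fold change 0.97, adjusted p = 0.025). *LOX2*, the lipoxygenase of jasmonate synthesis, was high in all 3 libraries, at 61.4, 17.3 and 36.7 CPM at 16w and 438, 273 and 269 CPM at 16w+5dLD (log2 fold change 3.09 with an SE of 0.98, adjusted p = 0.024), although its call was lost without 16w replicate 2 or 3 or 16w+5dLD replicate 1 (log2 fold change 2.74 to 3.05, adjusted p = 0.059 to 0.092). In all, 4 of 24 jasmonate genes rose (median 0.73), with a count of 1 without 16w+5dLD replicate 2 and 2 without 16w replicate 2 and 7 without 16w replicate 1. Of 25 ethylene genes 6 rose (median 0.70), and 1 without 16w+5dLD replicate 2. The one that remained was *ACO4*, the last enzyme of ethylene synthesis, at 129, 118 and 131 CPM at 16w and 652, 649.9 and 434 CPM at 16w+5dLD (log2 fold change 2.196 with an SE of 0.45, adjusted p = 0.0013), with 105 ± 16.4 CPM at 0w. *ICS1*, the enzyme of salicylate synthesis, was at 8.15, 12.9 and 7.55 CPM at 16w and 34.2, 28.5 and 28.1 CPM at 16w+5dLD (log2 fold change 1.67 with an SE of 0.27, adjusted p = 0.00022), the single call of 16 salicylate and immune genes.

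**Figure D3:**
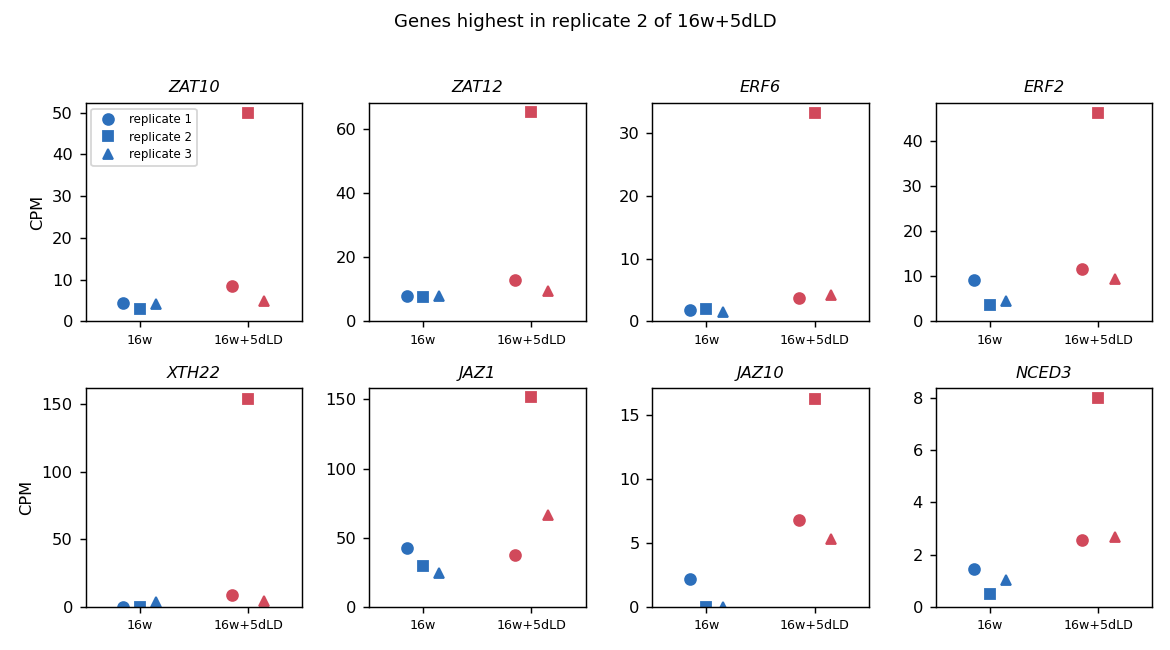
CPM of 8 genes in the 3 libraries of 16w and the 3 of 16w+5dLD, with 1 point per library (y axes linear from 0). Replicate 2 of 16w+5dLD is the highest of the 6 libraries in every panel, at 49.9 CPM against 4.81 and 8.50 CPM in its group for *ZAT10*.

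Low-oxygen genes moved in both directions. Of 15 tested, 3 rose and 4 fell (median 0.075), and the count of higher genes was 1 without 16w replicate 2 or 3 or 16w+5dLD replicate 3. *ADH1*, alcohol dehydrogenase of fermentation, was at 614, 607 and 448 CPM at 16w and 106, 110.4 and 82.3 CPM at 16w+5dLD (log2 fold change -2.48 with an SE of 0.33, adjusted p = 6.1e-05). *HRE1*, an ERF of the low-oxygen response, was at 136, 159 and 197 CPM at 16w and 40.3, 55.4 and 42.5 CPM at 16w+5dLD (log2 fold change -1.83 with an SE of 0.30, adjusted p = 0.00022). *PCO1*, the oxygen-sensing cysteine oxidase, was at 95.5, 80.2 and 68.8 CPM at 16w and 30.3, 31.9 and 23.5 CPM at 16w+5dLD (log2 fold change -1.51 with an SE of 0.29, adjusted p = 0.00086). These members fell without overlap. *RAP2.3*, a constitutive ERF of the same group, was at 389, 285 and 277 CPM at 16w and 759, 849 and 745 CPM at 16w+5dLD (log2 fold change 1.31 with an SE of 0.24, adjusted p = 0.00063). *HB1*, a haemoglobin, was at 92.0, 62.4 and 60.4 CPM at 16w and 126, 131 and 174 CPM at 16w+5dLD (log2 fold change 1.003 with an SE of 0.30, adjusted p = 0.017), with the call lost without 16w replicate 2 or 3 or 16w+5dLD replicate 3 (log2 fold change 0.84 to 0.91, adjusted p = 0.066 to 0.074), and its count equalled that of a neighbouring gene in 1 of the 6 libraries.

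Part of the heat shock genes rose. Of 16 tested, 7 rose and 1 fell (median 1.62). *HSFA2*, an inducible activator, had no count at 16w and 7.37, 14.8 and 18.97 CPM at 16w+5dLD, at least 253-fold higher (adjusted p = 0.0055). *HSFB1* was at 12.4, 9.97 and 8.59 CPM at 16w and 46.9, 53.2 and 48.2 CPM at 16w+5dLD (log2 fold change 2.26 with an SE of 0.22, adjusted p = 1.2e-05), near its 0w level of 42.3 ± 3.202 CPM. *HSFB2A* was at 11.9, 12.2 and 10.9 CPM at 16w and 30.2, 62.3 and 35.1 CPM at 16w+5dLD (log2 fold change 1.86 with an SE of 0.38, adjusted p = 0.0014), highest in replicate 2. *DREB2A*, an activator of drought and heat genes, fell, with 23.2, 26.7 and 33.9 CPM at 16w and 3.47, 15.3 and 4.30 CPM at 16w+5dLD (log2 fold change -1.87 with an SE of 0.44, adjusted p = 0.0038, and -2.85, adjusted p = 0.00021 without replicate 2 of 16w+5dLD), but was not called in a fit of these 6 libraries alone. Against 0w, 5 of the 16 genes were higher and 0 lower at 16w+5dLD.

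Few root genes were called. Of 9 tested genes of root founder cells and primordia 1 fell and none rose (median -0.27), and the count was 0 without 16w replicate 2 or 16w+5dLD replicate 1, 2 or 3. Of 12 genes that the study names for rooting, 1 fell and none rose (median -0.42). That list was chosen on these samples, so its direction is no independent evidence. *NRP2*, a histone chaperone, was the call, at 150.2, 184 and 195 CPM at 16w and 66.9, 76.8 and 74.9 CPM at 16w+5dLD (log2 fold change -1.27 with an SE of 0.24, adjusted p = 0.00066). None of 5 reference genes passed, with log2 fold changes from -0.43 to 0.32.

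The largest changes were of genes without counts in 1 group. In all, 173 called genes were at 0 in the 3 libraries of a group. *SAG12*, a senescence-associated protease, had no count at 16w or 0w and 148, 185 and 30.5 CPM at 16w+5dLD, at least 2234-fold higher (adjusted p = 0.013). *SWEET15*, a sugar exporter of senescing tissue, had 66.9, 71.3 and 4.39 CPM, at least 875-fold higher (adjusted p = 0.042), but lost its call without 16w replicate 1, 2 or 3 or 16w+5dLD replicate 1, 2 or 3 (adjusted p = 0.055 to 0.094). In both, replicate 3 was the lowest, and the bounds are of the group means and do not hold for that library. *ACA1*, an alpha-type carbonic anhydrase, had 30.6, 37.5 and 50.6 CPM after the return, at least 728-fold higher (adjusted p = 0.0024), and 46.6 ± 10.1 CPM at 0w. Aa_G15860 had 28.0, 22.1 and 30.6 CPM, at least 496-fold higher (adjusted p = 8.5e-05), and 42.4 ± 4.09 CPM at 0w. The other 8 of the 12 named increases, Aa_G514450, Aa_G430230, Aa_G483120, Aa_G123190, Aa_G1390, Aa_G297530, Aa_G92510 and Aa_G488910, were at 0 in all 3 libraries at 16w. The bounds of these 8 ran from 538-fold to 949-fold. For the first 5 the call was lost without any 1 of the 16w libraries. Some of these genes were also at 0 in only part of the libraries of another group. Aa_G483120 was at 51.96, 0 and 42.25 CPM at 0w and 0, 46.05 and 0 CPM at 12w. Aa_G1390 was at 32.58, 0 and 33.59 CPM at 12w, and Aa_G514450 at 36.04, 22.43 and 0 CPM at 21w. The bounds do not cover such a spread between replicates, and its part in the counts of 0 at 16w was not tested. In Aa_G430230 and Aa_G123190 the count equalled that of a neighbouring gene in 3 libraries, and in Aa_G488910 in 2.

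Among the decreases, *JMJ30*, a clock-associated histone demethylase, was at 45.4, 44.5 and 33.4 CPM at 16w and had no count after the return, at least 807-fold lower (adjusted p = 0.0046). *SULTR3;3*, a sulfate transporter, was at 16.6, 16.9 and 23.4 CPM at 16w, at least 372-fold lower (adjusted p = 0.0016). *CPK14*, a calcium-dependent kinase, was at 583, 32.7 and 304 CPM at 16w, at least 6019-fold lower against the mean of 16w (adjusted p = 0.0011), though its count equalled that of a neighbouring gene in 2 of the 6 libraries. Its 3 cold libraries spread more widely than those of the other genes named here, and the bound does not hold for 16w replicate 2. *FKBP53*, a nuclear immunophilin, was at 29.0, 44.7 and 29.9 CPM at 16w, at least 678-fold lower (adjusted p = 0.031), with the call lost without 16w replicate 2 or 16w+5dLD replicate 1, 2 or 3 (adjusted p = 0.051 to 0.083). *SEF*, a chromatin remodelling subunit, was at 9.02, 6.17 and 8.54 CPM at 16w, at least 155-fold lower (adjusted p = 0.018), and *DOF1.1*, a transcription factor, at 9.53, 14.1 and 7.86 CPM, at least 206-fold lower (adjusted p = 0.043). These calls were lost without 16w+5dLD replicate 1, 2 or 3 (adjusted p = 0.053 to 0.057) for *SEF* and without 16w replicate 1, 2 or 3 or 16w+5dLD replicate 1, 2 or 3 (adjusted p = 0.06 to 0.11) for *DOF1.1*. *FKBP53*, *SEF* and *DOF1.1* were also at 0 in only part of the libraries of another group. At 12w+5dLD *FKBP53* was at 20.11, 0 and 19.83 CPM and *DOF1.1* at 0, 14.74 and 15.59 CPM. *SEF* was at 0, 7.01 and 7.14 CPM at 21w+5dLD. Their bounds do not cover such a spread between replicates. *GRP3*, a glycine-rich wall protein, was at 12.2, 10.4 and 10.4 CPM at 16w and 0.146, 0 and 0 CPM at 16w+5dLD (log2 fold change -7.59 with an SE of 1.41, adjusted p = 0.00061), and its count after the return came from replicate 1 alone. Aa_G273050, Aa_G366260 and Aa_G6390 also had no count after the return, with bounds of 158-fold, 164-fold and 442-fold lower, and Aa_G223260 was at 36.3, 75.0 and 123 CPM at 16w and 0, 0.822 and 0 CPM at 16w+5dLD, with the call lost without 16w+5dLD replicate 1 or 3 (log2 fold change -7.60 to -7.61, adjusted p = 0.061 to 0.062).

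After the 5 days, the stems differed from stems before cold in 812 genes that were higher and 684 that were lower, 4.2% and 3.54% of the genes tested, while 16w against 0w gave 1367 higher (7.07%) and 1978 lower (10.2%). The comparisons share libraries, so these counts are set side by side only. Cold effectors lay below 0w in 5 of 14 and above it in none, with a median log2 difference of -0.85 after the return and 0.999 at 16w. Aliphatic glucosinolate genes had medians of -2.14 after the return and -1.79 at 16w. Secondary wall polysaccharide genes had -1.19 and -3.20, and monolignol genes -0.35 and -1.53. Of the study's 12 root genes, 5 were higher than at 0w after the return and 9 at 16w. The study named them for being higher in cold in these samples, so neither count is independent evidence. Ethylene genes were higher than at 0w in 8 of 25 after the return. In the return itself their count of higher genes was 6, and 1 without 16w+5dLD replicate 2. The count against 0w was not computed without that library.

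**Figure D4:**
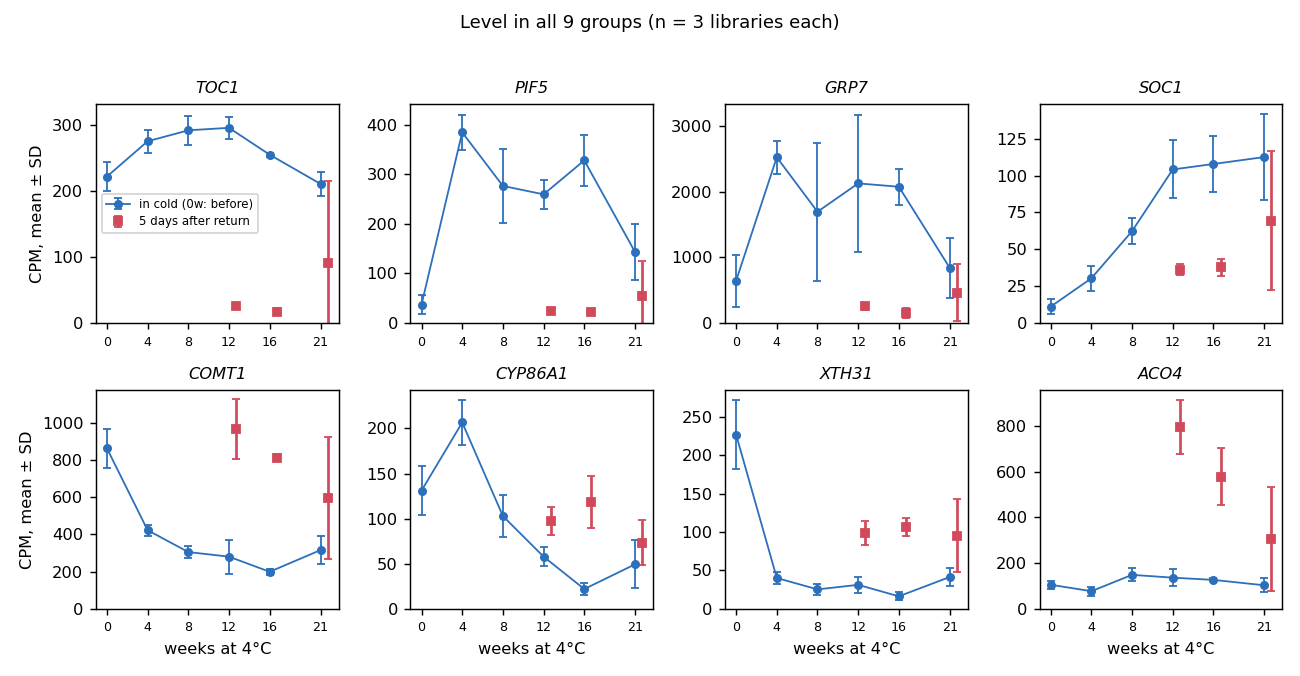
Level of 8 genes in CPM (mean ± SD, n = 3) before cold and after 4 to 21 weeks at 4°C (blue, joined) and 5 days after the return from 12, 16 and 21 weeks (red), with error bars cut at 0. *TOC1*, *PIF5*, *GRP7* and *SOC1* are lower after the returns from 12 and 16 weeks than in cold, and *COMT1*, *CYP86A1*, *XTH31* and *ACO4* are higher in the means of all 3 returns. The SD at 21w+5dLD is wide in several panels.

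The same return after 12 weeks of cold used other libraries and gave 1116 higher (5.77%) and 943 lower genes (4.88%). Of the 1321 genes higher after 16w, 640 were also higher after 12w (48.4% of the 16w list and 57.3% of the 12w list), and of the 881 lower genes 512 were also lower (58.1% and 54.3%). The opposite call was made for 1 of the higher and 0 of the lower genes. The sign after 12w was the same for 93.6% of the higher and 97.3% of the lower genes, against 77.0% of all tested genes. The genes higher after 16w had a median log2 fold change of 1.71 after 16w and 1.21 after 12w, and those higher after 12w had 1.34 after 16w and 1.55 after 12w, so that each list was larger where it was chosen. Across all tested genes the fold changes of both returns had a Pearson r of 0.436 and a Spearman rho of 0.650, as a description. Suberin genes were called higher in 9 after 16w and 5 after 12w (medians 2.28 and 0.90), secondary wall polysaccharide genes in 11 and 13 (medians 2.03 and 2.67), and photosynthesis genes in 2 and 15 (medians 0.35 and 1.05). A test of the difference in response called none of the genes of the suberin, secondary wall and photosynthesis lists. That test called only 4 genes in all, against 458 with DESeq2, so the lack of calls does not show that the responses were alike.

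**Figure D5:**
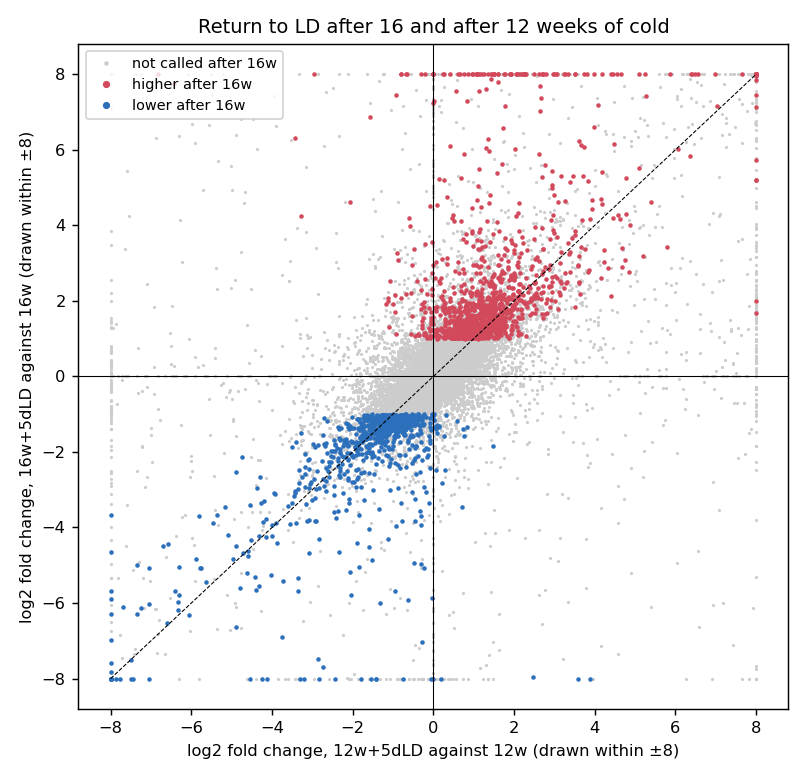
Log2 fold change of each tested gene in the return after 16 weeks (y axis) against that after 12 weeks (x axis), with genes called after 16 weeks in red (higher) and blue (lower) and values beyond ±8 drawn at the border. The called genes lie mostly in the upper right and lower left, where 93.6% and 97.3% of them have the same sign in both returns.

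The response itself was tested against that after 12w, and 4 genes (0.0207% of those tested) differed by at least 2-fold, with 1762 at an unadjusted p under 0.05. *GPAT6* was at 10.2, 12.6 and 9.46 CPM at 12w and 15.4, 11.9 and 11.6 CPM at 12w+5dLD, a log2 change of 0.27 (adjusted p of the difference = 6.9e-09). It had no count at 16w and the values given above at 16w+5dLD. *TPPG*, a trehalose phosphate phosphatase, was at 6.66, 5.74 and 4.06 CPM at 16w and 15.7, 16.5 and 20.6 CPM at 16w+5dLD, while it had no count at 12w and 10.96, 13.5 and 13.2 CPM at 12w+5dLD (adjusted p of the difference = 4.3e-07). Aa_G76440 had the same order, with 5.18, 3.57 and 3.80 CPM at 16w and 14.4, 14.1 and 21.3 CPM at 16w+5dLD against no count at 12w and 2.27, 9.08 and 9.64 CPM at 12w+5dLD (adjusted p = 0.00073). Aa_G488910 had no count at 16w and 33.2, 68.2 and 0.140 CPM at 16w+5dLD, against 0.164, 46.7 and 20.6 CPM at 12w and 0.207, 0.168 and 0.202 CPM at 12w+5dLD (adjusted p = 0.043), and its count equalled that of a neighbouring gene in 2 of the 6 libraries. Each of the 4 genes thus had no count in 1 of the cold groups, 16w or 12w.

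Against the return after 21w, 199 genes differed in response (1.03%), 72 with a higher and 127 with a lower response after 16w, and 3330 had an unadjusted p under 0.05. Replicate 3 of 21w+5dLD stood apart from the other 2 libraries of its group, and without it 43 genes were higher and 45 lower. With this library in the fit, the median log2 fold change after 21w was 0.68 for the 1321 genes and -0.46 for the 881. These medians were not computed without it, and the genes had been chosen on the return after 16w. They therefore do not give the size of the response after 21w. *PRR5* was at 79.2, 119 and 133 CPM at 21w and 9.93, 13.2 and 105 CPM at 21w+5dLD, with replicate 3 near the cold level. *CPK14* was at 0 in replicates 1 and 2 of 21w+5dLD and at 14.9 CPM in replicate 3. *NUDT3*, a nudix hydrolase, was at 53.7, 67.5 and 78.4 CPM at 16w and 129, 103 and 119 CPM at 16w+5dLD without overlap, but it did not pass in the return after 16w (log2 fold change 0.81 with an SE of 0.91, adjusted p = 0.57). At 21w it was at 86.7, 82.0 and 83.9 CPM and had no count in the 3 libraries of 21w+5dLD (adjusted p of the difference = 0.0079). Aa_G412960 was at 3.69, 4.29 and 5.36 CPM at 16w and 9.18, 833 and 1258 CPM at 16w+5dLD, and at 6.68, 3146 and 1.804 CPM at 21w and 8.09, 11.5 and 3.19 CPM at 21w+5dLD. Its call in the response (adjusted p = 0.016) therefore rests on 1 library of 21w and on 2 of 16w+5dLD.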

How the data were processed

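RNA was sequenced in 27 libraries of 9 groups (n = 3), and the 6 libraries of 16w and 16w+5dLD were compared for all genes. Per the paper's methods, polyA libraries were made with a directional kit and read as single ends. The counts per gene were deposited by the authors, who used HISAT2 for alignment and StringTie for assembly and quantification, and then turned coverage into whole-number counts with the script that StringTie supplies. Tool versions and genome build: not given in the sources used here. Tables of comparisons that were also deposited hold fold changes and adjusted p-values computed by the authors with DESeq2, and they were not used. Genes were named through the *A. thaliana* homolog in the count table, with symbols written by hand, and no reference sequence was used.

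The table held 21641 genes, 338 of them without counts. In R 4.3.3 with edgeR 4.0.16, 19337 genes passed filterByExpr (14985 with a homolog) and were fitted together over the 27 libraries (TMM scaling, quasi-likelihood test, 18 residual degrees of freedom), with contrasts for the return, its difference from the returns after 12w and 21w, and 16w+5dLD against 0w. The tests are two-sided, and p-values were adjusted by Benjamini-Hochberg over all tested genes. Calls needed a change of at least 2-fold with an adjusted p under 0.05. Against a group at 0, a fold sets the mean of the other group against a floor of 3 counts over the group at 0. The floor was 0.0543 CPM at 16w and 0.0509 CPM at 16w+5dLD. Such a fold is a lower bound for group means, not for single libraries, and the floors cover counting error only. The common dispersion was 0.417 and the median 0.0701. Alternatives were DESeq2 1.42.0, other scalings, filters and fits, a replicate block, and leaving out genes or each library.

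Of 1092 loci in 56 gene lists, 867 were in the table and 830 were tested. Named genes are the key members of each list, its called members with the largest fold change (at most 3 higher and 3 lower), and the 12 largest increases and decreases with a homolog, provided that the groups did not overlap and that the group with the higher mean reached 5 CPM. Up to 3 genes per direction were named for each difference in response under the same conditions. The lists, rules and members were chosen with earlier results of these data known. A neighbouring gene with an equal count of 100 or more in at least 1 of the 6 libraries was found for 1567 tested genes, 186 of them called. No 2 libraries were identical, and no replicates agreed within counting noise.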

Additional observations from a re-analysis of the deposited data

Results flagged for a closer look

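The response to the return was compared between durations of cold by a test of the difference itself in edgeR. After 16w it differed from that after 12w in 4 genes. The adjusted p of the difference was 6.9e-09 for *GPAT6*, 4.3e-07 for *TPPG*, 0.00073 for Aa_G76440 and 0.043 for Aa_G488910. Since a cold group of each gene held no count, no size is given. Against the return after 21w, 199 genes differed, and 88 without replicate 3 of 21w+5dLD.

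Among named genes with a larger response after 16w than after 21w, the log2 difference was 1.95 for *ABF2*, 1.64 for *HSFB1*, 1.66 for *ATHB2*, 1.48 for *GLN1;1* and 14.41 for Aa_G412960. Without 21w+5dLD replicate 3 these differences were 1.61 (adjusted p = 0.09), 1.42 (0.027), 1.33 (0.022), 1.18 (0.026) and 14.04 (0.04). On the log2 scale *ABF2* had changed by 1.74 after 16w and -0.21 after 21w, and *HSFB1* by 2.26 and 0.62. *ATHB2* had changed by 2.25 and 0.59, and *GLN1;1* by 1.65 and 0.18. These changes after 21w include 21w+5dLD replicate 3, the lowest library of its group for each of these genes. *ATHB2* was at 51.58, 58.39 and 20.91 CPM at 21w+5dLD. *ABF2* was at 5.07 CPM in replicate 3, while replicates 1 and 2 lay above the lowest library of 21w, at 11.92 CPM. The sign for *ABF2* and the sizes after 21w therefore depend on that library.

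Genes with a stronger fall after 16w included the clock gene *PRR5*, with a log2 difference of -3.12, *SEN5* with -3.07, *ADH1* with -1.80, *ABF1* with -1.51, *SVP* with -1.07, *LHCB3* with -1.06, *P5CS2* with -1.03 and *PYL4* with -1.01. Without 21w+5dLD replicate 3 the adjusted p was 0.11 for *PRR5*, 0.069 for *SEN5*, 0.12 for *ADH1*, 0.099 for *ABF1*, 0.06 for *SVP*, 0.084 for *LHCB3*, 0.072 for *P5CS2* and 0.061 for *PYL4*. None of these 8 differences was called without that library.

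For genes without counts in the 3 libraries of a group, the adjusted p of the difference from the return after 21w was 4.4e-09 for *GPAT6*, 0.02 for *CHS*, 0.0079 for *NUDT3*, 0.0079 for *COR28*, 0.042 for *CPK14*, 0.016 for Aa_G15860, 0.033 for Aa_G5020 and 0.04 for Aa_G263930. Without 21w+5dLD replicate 3 it was 7.3e-08, 0.04, 0.017, 0.0034, 1, 0.026, 0.064 and 0.0004 in the same order.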

How the results depend on the processing

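No called gene among those named changed direction in the alternatives that tested named genes. These were DESeq2, its size factors in edgeR, the replicate block, the 6 libraries alone and the fits without 1 of these 6. Of the 157 called named genes, 47 lost the call without at least 1 of the 6 libraries. The counts of 1321 higher and 881 lower genes were 1078 to 1238 and 744 to 830 when 1 library was left out, and the 1496 genes that differed from 0w were 1115 to 1473. Without a minimum fold change the counts were 2696 higher and 2586 lower, 3288 against 0w and 344 for the difference from the return after 21w. The 4 genes that differed from the return after 12w were 4 to 17 without 1 library, 458 with DESeq2, 18 with only the groups compared and 0 without genes at 0 in a group, so this count rests on the tool and on genes without counts. The 199 genes that differed from the return after 21w were 31 to 481 without 1 library, with the lowest count without 21w replicate 1 and the highest without 21w+5dLD replicate 1, 947 with DESeq2 and 20 with only the groups compared. DESeq2 called 1780 higher and 1102 lower genes in the main comparison and did not call *BZR1* and *SWEET15*, and *BZR1* was also lost with its size factors. DESeq2 gave no adjusted p for 3 named genes, which were left out of this check. With only the 6 libraries of 16w and 16w+5dLD in the fit, 21 named calls were lost: *ZAT10*, *ZAT12*, *SUS4*, *VI2*, *NRT1.1*, *DREB2A*, *PEAR2*, *GPAT5*, *ASFT*, *XTH22*, *XTH20*, *GSTF11*, *ARGOS-LIKE*, *NCED3*, *RD26*, *ERF6*, *ERF2*, *JAZ1*, *JAZ10*, *BZR1* and Aa_G488910. The replicate numbers were shared between groups, but deviations of same-numbered libraries did not correlate across genes (r from -0.0022 to 0.0031). Such a correlation cannot show how the plants were grown or harvested, so whether the numbers pair the samples is not known. With the replicate number as a block, 1275 genes were higher and 852 lower, 3 and 160 differed from the returns after 12w and 21w, 1415 differed from 0w, and 7 named calls were lost. The cause of these changes was not tested. Where a group held no count, depth allows only a bound on the fold. Of 23 named genes without a call 7 were called under at least 1 of the alternatives that tested named genes.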
